A study of Mus musculus with 2 samples.

Results

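Keratins are the intermediate filament proteins of epithelial cells. They were followed here in the lenses of newborn mice with and without Msx2, a homeobox transcription factor. The members were all genes that the array's probe annotation names Krt followed by a digit, with the keratin-associated protein genes and the genes Krtcap and Krtdap left out. This gave 44 genes, 25 of type I and 19 of type II, represented by 52 probes with 1 spot each, of 27343 genes by name on the array. The study profiled lens RNA at postnatal day 1 on 1 one-colour array from a conditional knockout of Msx2 (CKO) and on 1 from wild type. In the CKO the gene was removed with Le-Cre, a transgene in which a Pax6 promoter drives Cre recombinase in the surface ectoderm of the eye, the tissue that forms the lens and also the epithelium of the cornea and conjunctiva. It is not stated whether wild-type mice had Le-Cre or how many animals gave each RNA, and without replicate arrays no p-value is given.

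Keratin filaments are built from pairs of 1 type I and 1 type II protein, and a partner without its pair is unstable. Each epithelium has characteristic pairs, such as Krt8 with Krt18 in simple epithelia, Krt5 with Krt14 in the basal layer of stratified epithelia, and Krt1 with Krt10 in the layers above it. Lens cells are of epithelial origin, but their cytoplasmic filaments are made mainly of vimentin and of the lens-specific proteins Bfsp1 and Bfsp2.

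Each array carried 41174 non-control probes, of which 54.2% and 55.1% were well above background by the scanner software's own mark. The lowest signal that carried this mark was 16.5 intensity units for CKO and 16.6 for wild type, and no spot was saturated. Msx2 checked the genotype labels: its probe gave 371 ± 15.9 units in wild type (SD over 10 spots of the array) and 4.62 ± 1.77 in CKO, at least 22.6-fold less. The 11 lens fibre markers and the 8 lens epithelium markers were all well above background on both arrays. A gene is called measured where a probe was well above background on both arrays, and it takes the value of its brightest such probe. Signals are processed intensities, each given with the scanner software's error estimate for its spot, and fold changes were taken after each array was scaled to its 75th percentile (203 and 201 units). In the keratins' range of signal, the log2 difference of repeated spots of 1 probe had an SD of 0.27 over 84 probes.

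Most keratins were not detected in either lens. Of the 44 genes, 11 were measured (25%, against 52% of all genes), and 30 were well above background on neither array (68.2%, against 40.9% of all genes). Another 3 were well above background on 1 array only: 1 in CKO, where 3.91% of all genes were, and 2 in wild type, against 3.15% of all genes. The measured keratins were Krt7, Krt18 and Krt19 of simple epithelia, Krt1 and Krt10 of the suprabasal epidermis, Krt16, Krt17 and Krt79 of the group tied to wounds and skin appendages, Krt71 of the inner root sheath of hair, and Krt33b and Krt84 of the hair shaft. None of the 3 keratins of the basal layer or the 5 of cornea and mucosa was measured, nor any of the 4 members placed in no class (Krt23, Krt42, Krt80 and Krt222). The 30 undetected keratins gave signals from 3.31 to 18.5 units at the probe shown for each.

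**Figure D1:**
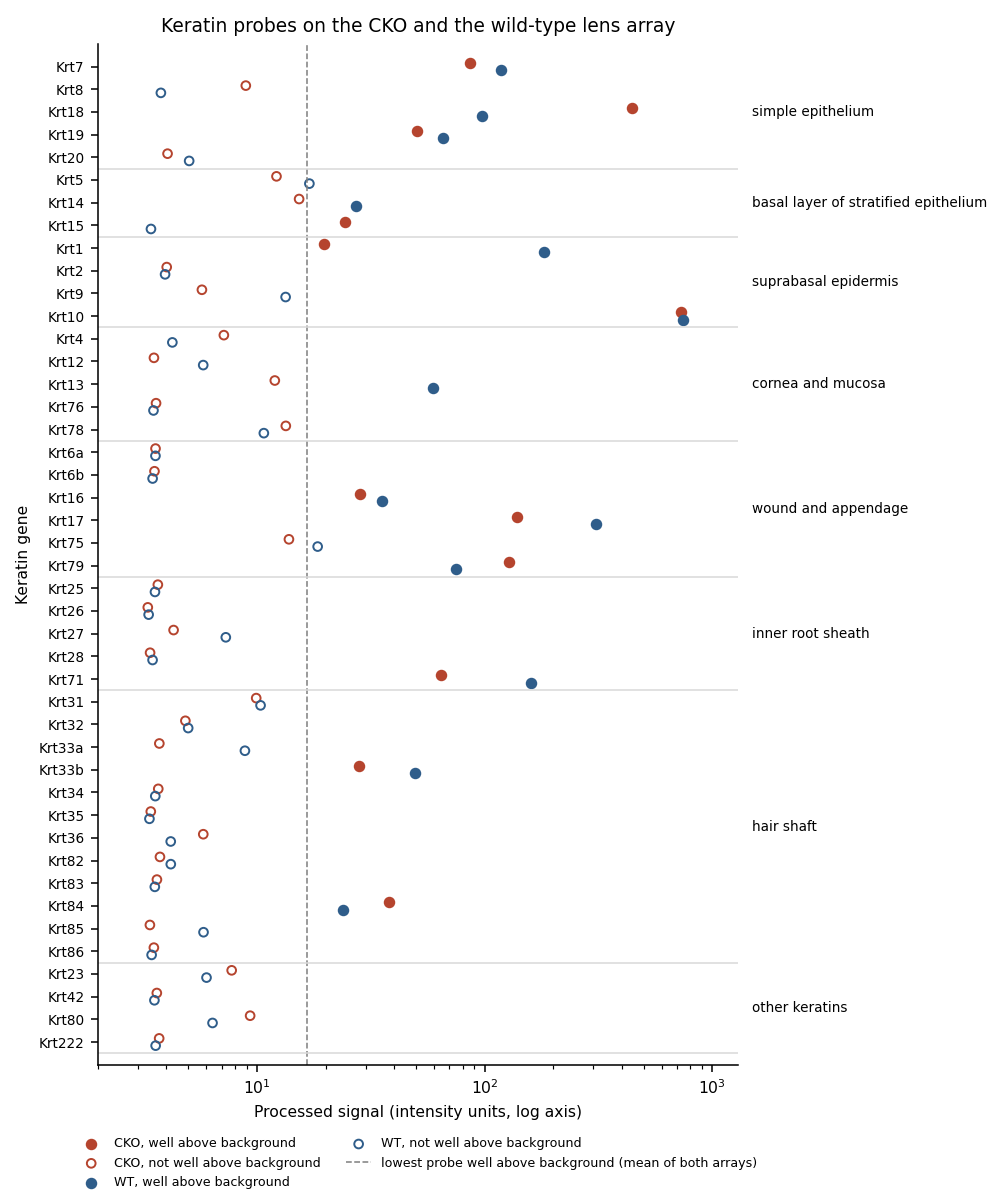
Processed signal of each of the 44 keratin genes (rows, by class) on the CKO and the wild-type array, on a log axis in intensity units. Filled points are well above background, open points are not, and the dashed line is the lowest signal that carried that mark; 30 genes have 2 open points, and Krt18 and Krt1 show the widest gaps between filled points.

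The measured keratins did not move in one direction. Only Krt18 reached 2-fold in the upward direction, 1 of 11 (9.09%), against 4.11% of all measured genes. Krt1, Krt17 and Krt71 were at least 2-fold lower, 3 of 11 (27.3%), against 3.98% of all measured genes, and in genes within the keratins' own range of mean level these shares were 5.7% higher and 4.7% lower. With so few members 1 gene moves these shares widely, and for Krt1 the strand of the probe is in doubt (below). Taken in either direction, 8.09% of all measured genes differed by 2-fold. The median log2 difference of the 11 was -0.39, against -0.12 for all measured genes. The differences spread over an SD of 1.37, against 0.60 for all measured genes. Of the 11, 8 lay below 0 (72.7%), as did 60.7% of all measured genes and 57.2% of those in the keratins' range of level. Krt10 changed sign in the deposited log2 table, after intensity-dependent centring and after quantile normalization, and Krt7 with the mean of its probes.

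**Figure D2:**
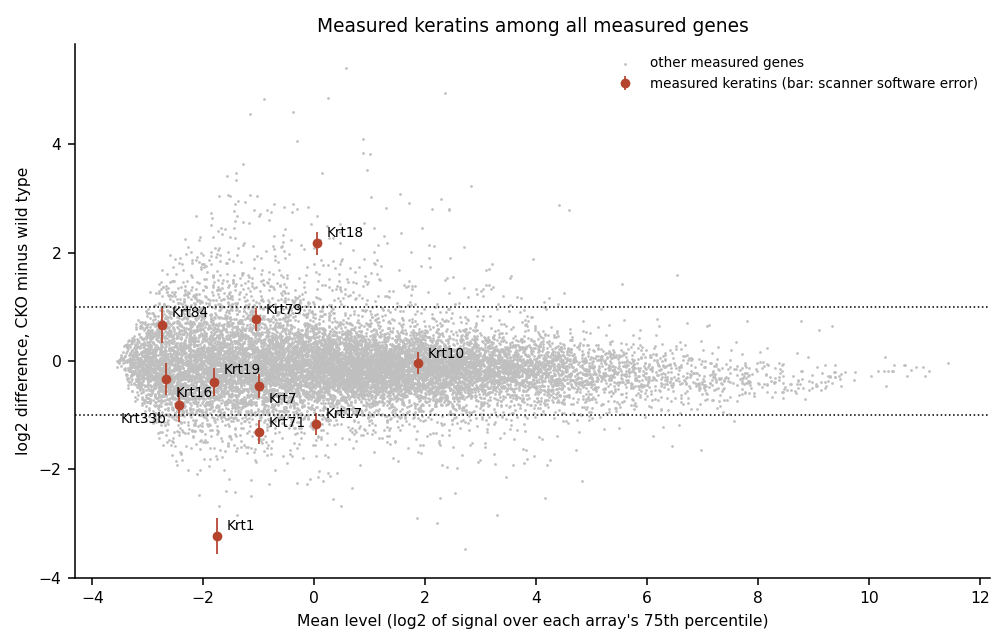
Log2 difference between CKO and wild type (y axis) against mean level (x axis, log2 of signal over each array's 75th percentile) for all measured genes in grey and the 11 measured keratins in red. Bars are the scanner software's error of the difference and dotted lines mark 2-fold; Krt18 lies above the upper line, and Krt1, Krt71 and Krt17 lie below the lower one.

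Among keratins of simple epithelia, Krt18, the type I partner of Krt8, gave 444 ± 44.6 units in CKO and 97.7 ± 10.5 in wild type. It was 4.52-fold higher in the CKO lens, with a log2 difference of 2.17 ± 0.21 (scanner software error). Its single probe lies on chromosome 15 from 101862341 to 101862400 (forward strand); all probe positions are in mm9. Krt8, its usual partner, was well above background on neither array at either of its 2 probes. The brighter of these gave 8.93 ± 3.85 units in CKO and 3.78 ± 3.76 in wild type, so no fold is given. The Krt8 probe lies on chromosome 15 from 101827346 to 101827405 (reverse strand), and the RefSeq gene table (GRCm38.p6, used for order only) lists 2 predicted genes between Krt8 and Krt18. The sequences of these probes are shown because the Krt18 value rests on 1 of them and the Krt8 value named here on the other.
Krt18 A_51_P324814: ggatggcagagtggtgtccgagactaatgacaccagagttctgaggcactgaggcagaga
Krt8 A_51_P242399: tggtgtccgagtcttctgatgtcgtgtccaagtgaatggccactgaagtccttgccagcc
The longest run of bases that these probes share is 11, and the longest between the probes of any 2 keratin genes on the array is 20, for Krt83 and Krt86, neither of which was detected. This compares probes with probes only, so it cannot tell whether a probe also binds the RNA of another keratin.

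Krt7, a type II keratin of simple and glandular epithelia, had 2 measured probes that disagreed. The probe nearer the 3′ end of the transcript, A_51_P312348, gave 86.3 ± 9.55 units in CKO and 118 ± 12.5 in wild type, a log2 difference of -0.46 ± 0.22. The probe further upstream, A_52_P410685, gave 114 ± 12.0 units in CKO and 21.2 ± 4.12 in wild type, a log2 difference of 2.41 ± 0.32 or 5.33-fold higher. Both were designed on the same RefSeq mRNA, at positions 1520 and 1054. The first is the brighter on average and is the value counted above, so that Krt7 is not among the genes at least 2-fold higher. The gap between them, 2.87 on the log2 scale, was reached or passed in 3 of 4847 genes with more than 1 measured probe (0.062%), a count that includes Krt7 itself. Normexp is a background model, applied here to each spot's mean signal and median background instead of its processed signal. A fixed offset of 50 units was then added to all signals. With normexp the differences were -0.22 and 1.02. The upstream probe lies on chromosome 15 from 101253718 to 101253777 (forward strand) and is printed because only this probe of Krt7 was higher in CKO.
Krt7 A_52_P410685: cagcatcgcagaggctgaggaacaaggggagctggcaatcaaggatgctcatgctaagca

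Krt19, the smallest keratin of simple epithelia and one without most of the tail domain, gave 50.6 ± 6.62 units in CKO and 65.9 ± 7.70 in wild type. Its log2 difference of -0.39 ± 0.25 was 1.31-fold. Krt20, a keratin of gut and urinary epithelium, was well above background on neither array.

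The keratins of the basal layer of stratified epithelia were at the edge of detection. Krt5 gave 12.2 ± 3.77 units in CKO and 17.0 ± 3.92 in wild type and was well above background in neither. Its partner Krt14 gave 15.3 ± 3.75 units in CKO and 27.2 ± 4.35 in wild type, where it was well above background, which makes it at least 1.66-fold lower in CKO. Krt15, a type I keratin of basal cells, was well above background in CKO only, with 24.4 ± 4.15 units against 3.42 ± 3.42 in wild type, and was at least 1.47-fold higher. Such a bound divides the brighter array's signal by the detection limit of the other array, or by the dim signal itself if that is larger. Of all genes seen in CKO only, 34.8% had a bound of 2-fold or more. Neither reaches 2-fold, and Krt14 and Krt15 were seen on opposite arrays. The 60-base probe of Krt14 covers 606 bases of chromosome 11 (100064683 to 100065288), so it crosses a splice junction.

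Among keratins of the suprabasal epidermis, Krt1 was lower in CKO. Its brighter probe, A_51_P207237, gave 19.7 ± 4.0 units in CKO and 183 ± 18.6 in wild type, a log2 difference of -3.23 ± 0.33. Its CKO signal was close to the lowest signal well above background, and with normexp the difference was -1.54, smaller in size than that of Krt18 (1.65). That probe was designed on a RIKEN testis cDNA, and its position on chromosome 15 from 101678904 to 101678963 runs along the forward strand. The other Krt1 probe, A_51_P416669, designed on the RefSeq transcript, lies on the same chromosome from 101676107 to 101676166 and runs along the reverse strand. The 2 probes therefore read opposite strands of the Krt1 locus, and whether the 9.36-fold lower signal is that of Krt1 mRNA was not tested. Over all probes whose gene has a RefSeq promoter of known strand, 99.7% of those designed on a RefSeq mRNA ran along the gene's strand, and 3.26% of those designed on an accession outside RefSeq ran against it. All 35 keratin probes that could be compared in this way ran along their gene's strand; Krt1 itself was not in that table. The RefSeq probe gave 16.1 ± 3.77 units in CKO, not well above background, and 82.6 ± 8.94 in wild type. By this probe Krt1 was at least 5.04-fold lower in CKO, and at least 1.85-fold with normexp background correction. Without the forward-strand probe 10 keratins were measured, of which 2 were at least 2-fold lower.

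Krt10, the type I partner of Krt1, hardly differed. Its probe on an early mRNA entry, A_51_P111285, gave 729 ± 73.0 units in CKO and 747 ± 74.9 in wild type, a log2 difference of -0.05 ± 0.20. This probe has no position in the file. A probe of the RefSeq transcript, A_52_P76277 on chromosome 11 from 99247994 to 99248053, was well above background on neither array, with 8.81 ± 4.05 and 16.3 ± 4.33 units. The signal called Krt10 thus comes from 1 of 2 probes, whose sequences are given for that reason.
Krt10 A_51_P111285: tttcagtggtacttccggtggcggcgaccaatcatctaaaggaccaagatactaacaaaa
Krt10 A_52_P76277: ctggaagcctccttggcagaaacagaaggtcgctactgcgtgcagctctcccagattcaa
Krt2 and Krt9, other keratins of the outer epidermis, were well above background on neither array.

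**Figure D3:**
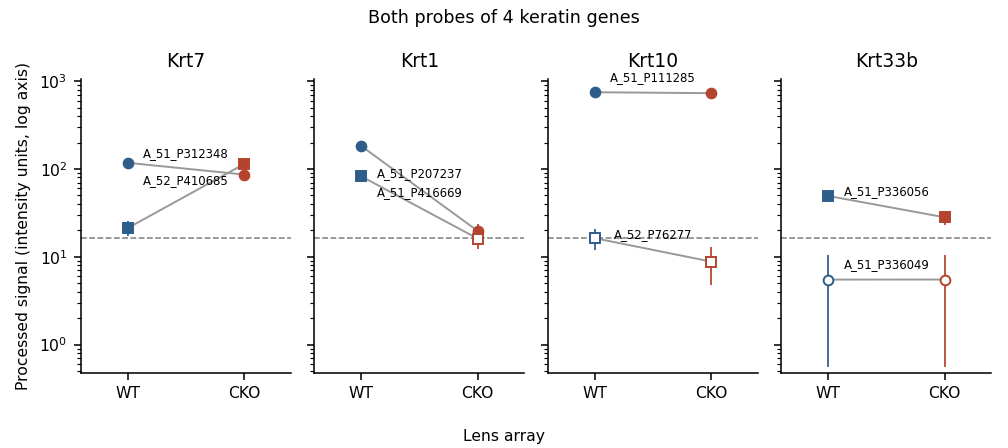
Processed signal (log axis, intensity units) of both probes of Krt7, Krt1, Krt10 and Krt33b on the wild-type and CKO arrays, with circles and squares for the 2 probes, filled where well above background. Bars are the scanner software's error, shortened where they would reach 0; the lines of Krt7 cross, those of Krt1 both fall, and 1 probe each of Krt10 and Krt33b stays below the dashed lowest level well above background.

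Keratins of the cornea and mucosa were nearly absent. Krt12, the keratin that defines the corneal epithelium, gave 3.53 ± 3.52 units in CKO and 5.81 ± 3.69 in wild type. Krt4, Krt76 and Krt78 were also well above background on neither array. Krt13, the partner of Krt4 in mucosal epithelia and conjunctiva, was seen in wild type only, with 59.2 ± 7.01 units against 12.0 ± 4.03 in CKO. It was at least 3.62-fold lower in CKO. Among the 3 keratins seen on 1 array it alone had an at-least fold of 2 or more, which 25.2% of all genes seen in wild type only reached. Krt1 is not among these 3, because it counts as measured through its forward-strand probe. By its RefSeq probe alone Krt1 was at least 5.04-fold lower. The bound of Krt13 was 1.60-fold with normexp. Its other probe, A_52_P430886, was well above background on neither array, with 4.69 units in CKO and 4.25 in wild type. The Krt13 value thus rests on 1 of 2 probes. Whether that probe also takes up RNA of other type I keratins was not tested.
Krt13 A_51_P307964: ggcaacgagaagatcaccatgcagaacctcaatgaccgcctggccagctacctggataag

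Keratins that stratified epithelia express on wounding and in hair follicles and glands were seen in part. Krt17, a type I keratin of appendages and of stressed epidermis, gave 139 ± 14.3 units in CKO and 309 ± 31.1 in wild type, a 2.24-fold lower signal in CKO with a log2 difference of -1.17 ± 0.21. Krt16, which epidermis expresses with Krt6a and Krt6b when it is injured, gave 28.3 ± 4.38 and 35.6 ± 4.85 units, a difference of -0.34 ± 0.30 that is close to the SD of repeated spots. Its partners Krt6a and Krt6b were well above background on neither array, and neither was Krt75. Krt79, a keratin of the hair follicle funnel and sebaceous gland, gave 128 ± 13.2 units in CKO and 74.6 ± 8.26 in wild type, 1.70-fold higher. Genes of this part of the type I cluster are similar in sequence, so a probe of Krt16 or Krt17 may take up some RNA of the other. The Krt17 probe lies on chromosome 11 from 100117584 to 100117643 (reverse strand).

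Of the 5 inner root sheath keratins on the array only Krt71, a type II keratin of that layer of the hair follicle, was measured. It gave 64.5 ± 7.43 units in CKO and 160 ± 16.4 in wild type, 2.49-fold lower in CKO with a log2 difference of -1.32 ± 0.22. Its probe lies on chromosome 15 from 101564426 to 101564485 (reverse strand). Its type I partners Krt25, Krt27 and Krt28 were well above background on neither array.

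Of 12 hair shaft keratins 2 were measured, both dim. Krt33b gave 28.2 ± 4.95 units in CKO and 49.4 ± 6.35 in wild type, a log2 difference of -0.82 ± 0.31, from a probe that covers 939 bases of chromosome 11 (99887866 to 99888804) and so crosses a splice junction. A second Krt33b probe nearer the end of the transcript was well above background on neither array, with 5.51 and 5.50 units. Krt33a, a close copy, was not detected, and the probe may not tell these genes apart. Krt84 gave 37.9 ± 5.11 units in CKO and 23.8 ± 4.27 in wild type, a log2 difference of 0.66 ± 0.32. The probe of Krt33b is printed because it alone gave signal.
Krt33b A_51_P336056: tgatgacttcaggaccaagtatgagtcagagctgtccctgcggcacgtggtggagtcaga

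Seen by pairs, Krt7 was measured together with Krt18 and Krt19, type I keratins with which it can pair, while Krt18 was measured without Krt8. Krt16 was measured without Krt6a or Krt6b, and Krt71 without Krt25, Krt27 or Krt28. Of Krt5 with Krt14 and of Krt4 with Krt13, 1 partner was well above background, in wild type only. Krt1 and Krt10 were both measured, but each only from a probe designed on an entry outside RefSeq, and for Krt1 its strand is in doubt. By their RefSeq probes neither was measured. The RefSeq probe of Krt1 was well above background in wild type only, and that of Krt10 on neither array.

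Krt18 stayed past 2-fold in all 11 settings that gave it a value, with log2 differences from 1.65 to 2.25. Krt17 ranged from -1.29 to -0.82 and Krt71 from -1.44 to -0.74, and both were under 2-fold only with normexp. Krt79 ranged from 0.47 to 0.81 and Krt84 from 0.27 to 0.67, and neither reached 2-fold. Krt18, Krt17, Krt71, Krt79 and Krt84 each have 1 probe with 1 spot, so only settings that recompute the signals could change their values. Those settings were normexp, median scaling, quantile normalization, intensity-dependent centring and the deposited table. The remaining settings could only repeat the reported value.

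**Figure D4:**
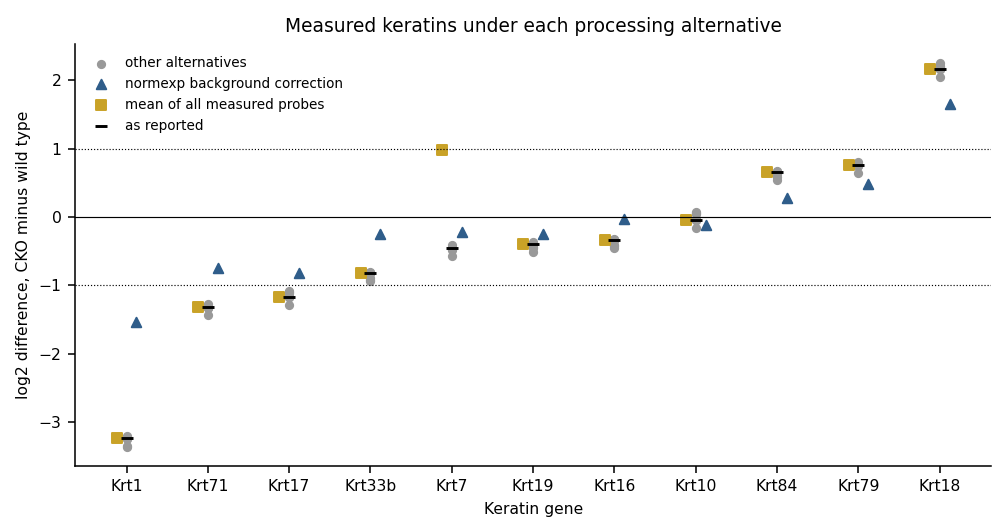
Log2 difference between CKO and wild type of the 11 measured keratins (x axis) as reported (black bar), with normexp background correction (triangle), with the mean of all measured probes (square) and under the other alternatives (grey). Dotted lines mark 2-fold; Krt18 stays above 1 throughout, Krt17 and Krt71 cross -1 with normexp only, and the square of Krt7 lies apart at 0.98.

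A TATA box core was found in a larger share of keratin promoters than of all promoters, though most keratin promoters lacked it. The RefSeq promoter table (GRCm38.p6) held 30 promoters of 29 of the 44 genes. In the 250 bases before the start, the TATA box core TATAAA, searched on both strands, occurred in 14 of the 30 (46.7%), against 12.4% of 32851 promoters. Among the measured keratins with a promoter there, it occurred in 4 of 7, namely Krt10, Krt33b, Krt71 and Krt84. The core of the Sp1 site, GGGCGG, occurred in 2 of the 30 (6.67%, against 32.7%), and the AP-1 site TGANTCA in 2 (6.67%, against 6.75%). Both promoters with the AP-1 site belong to 1 gene, Krt13. The homeodomain core TAATTG, which Msx proteins and many others can bind, occurred in 5 of the 30 (16.7%, against 7.17%), and in none of the 7 measured keratins. No 2 of these motifs contain each other, and a match is a description of letters. Keratin genes lie in clusters of similar genes, so their promoters are not independent of one another. Krt25, Krt26, Krt27 and Krt28, neighbours on chromosome 11, all had TATAAA, and Krt25, Krt26 and Krt28 also had TAATTG. Shown are the 120 bases before the start of Krt71, which was lower in CKO and has a TATAAA match that begins 40 bases before the start, and of Krt18, which was higher and has no match to the 4 motifs. The motif did not go with 1 direction: of the other measured keratins that have it, Krt84 had a log2 difference of 0.66, Krt10 of -0.05 and Krt33b of -0.82. Capitals mark the match.
Krt71 (chr15:101743098-101743217, reverse strand, GRCm38.p6): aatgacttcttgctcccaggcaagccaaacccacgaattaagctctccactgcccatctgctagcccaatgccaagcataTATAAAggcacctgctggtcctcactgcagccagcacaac
Krt18 (chr15:102028096-102028215, forward strand, GRCm38.p6): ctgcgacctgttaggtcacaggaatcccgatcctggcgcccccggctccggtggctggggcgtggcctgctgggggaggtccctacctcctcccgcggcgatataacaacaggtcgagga

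Other genes of the keratin system were compared by count and median beside those of all measured genes (median -0.12, with 4.11% at least 2-fold higher and 3.98% lower). Over all genes 52% were measured and 40.9% were detected on neither array. Of 15 other intermediate filament genes 9 were measured, with a median of -0.29, of which none was past 2-fold upward and 1 was past it downward. The lower one was Gfap, the filament protein of astrocytes, 3.21-fold. Vim, which encodes vimentin, was 1.55-fold lower (25801 and 39692 units), Bfsp1 1.47-fold lower, and Lmnb1, a nuclear lamin gene, 1.62-fold higher.

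Of 21 genes of desmosomes and hemidesmosomes, the junctions that anchor keratin filaments, 10 were measured and 10 were detected on neither array. Over all genes these shares were 52% and 40.9%, so the counts of this list lie near them. The measured genes had a median of -0.21, and none differed by 2-fold. Plec, the gene of the cytolinker plectin, was 1.65-fold lower, Dst 1.55-fold lower and the plakophilin gene Pkp2 1.43-fold lower. Dsp, which encodes desmoplakin, the protein that ties keratins to the desmosome, was well above background in CKO only, with 35.2 units against 9.21, at least 2.11-fold higher. The desmosomal cadherins Dsg1a, Dsg2, Dsg3, Dsc1, Dsc2 and Dsc3 were not detected.

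The cornified envelope is the cross-linked shell of dead epidermal cells. Of 19 of its genes on the array, 3 were measured (52% of all genes were) and 15 were detected on neither array (40.9% of all genes). Cnfn was well above background in CKO only, at least 1.62-fold higher. The measured genes Sprr2a1 (30024 and 38382 units), Lce1b (394 and 704 units) and Sbsn (245 and 358 units) were all lower in CKO by less than 2-fold, with a median of -0.56. Sprr2a1 is 1 of a cluster of near-identical genes. Ivl, Lor and Flg2 were not detected.

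Of 21 regulators and binding proteins of keratins on the array, 8 were measured and 11 were detected on neither array (40.9% of all genes). Another 2 were well above background in CKO only, Klf5 (at least 1.57-fold higher) and Tfap2c (at least 1.52-fold). The measured genes had a median of 0.27, and 1 was higher past 2-fold and 1 was lower by that much. The higher gene was Klf4, a transcription factor of epithelial differentiation, at 3.39-fold (1412 and 414 units), and the lower was Grhl1, a grainyhead factor that regulates desmosomal cadherins, at 2.50-fold (112 and 279 units). Trp63, the master regulator of stratified epithelia, was detected on neither array, with 11.3 and 8.56 units.

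Markers of the lens and of other tissues were compared on the same arrays. Their counts stand beside the same shares of all measured genes, 4.11% higher and 3.98% lower. Of all genes, 52% were measured. Of 11 lens fibre markers, all measured, 0 were at least 2-fold higher and 2 lower, with a median of -0.37. Of 8 lens epithelium markers, all measured, 0 differed by 2-fold, with a median of -0.07. Of 16 surface epithelium markers (cornea, conjunctiva, skin) 6 were measured, with 0 at least 2-fold higher, 1 lower (Gjb6, 2.66-fold) and a median of -0.36. Their summed signal was 5227 units in CKO and 5390 in wild type. Most of it came from Sfn (2302 and 2736 units) and Gsto1 (2409 and 1701 units). Well above background on neither array were 9 of the 16, among them Aldh3a1 and Trp63, against 40.9% of all genes. Of 12 markers of pigment epithelium and pigment cells 4 were measured, 3 of them at least 2-fold higher, with a summed signal of 816 and 253 units and Rpe65, Tyr and Rlbp1 undetected. Of 10 ciliary body and iris markers 8 were measured and 5 were at least 2-fold higher, with summed signals of 41226 and 41819 units, of which Aldh1a1 alone gave 38776 and 40885. Of 14 endothelial markers 13 were measured and 9 were at least 2-fold higher (9119 and 4108 units). Of 14 macrophage markers 8 were measured and 7 were at least 2-fold higher (9109 and 1370 units). Of 10 mesenchyme markers 6 were measured and 4 were at least 2-fold higher (12654 and 1385 units). Further markers were well above background in CKO only, as were 3.91% of all genes. These were 1 surface epithelium, 2 pigment, 1 ciliary body and iris, 1 endothelial, 6 macrophage and 3 mesenchyme markers. Their at-least folds ranged from 1.18 (Mal, surface epithelium) to 344 (Dcn, mesenchyme). The part of the marked cell types in the higher Krt18 signal was not tested. In whole lenses, fewer cells of a type and less RNA per cell cannot be told apart.

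**Figure D5:**
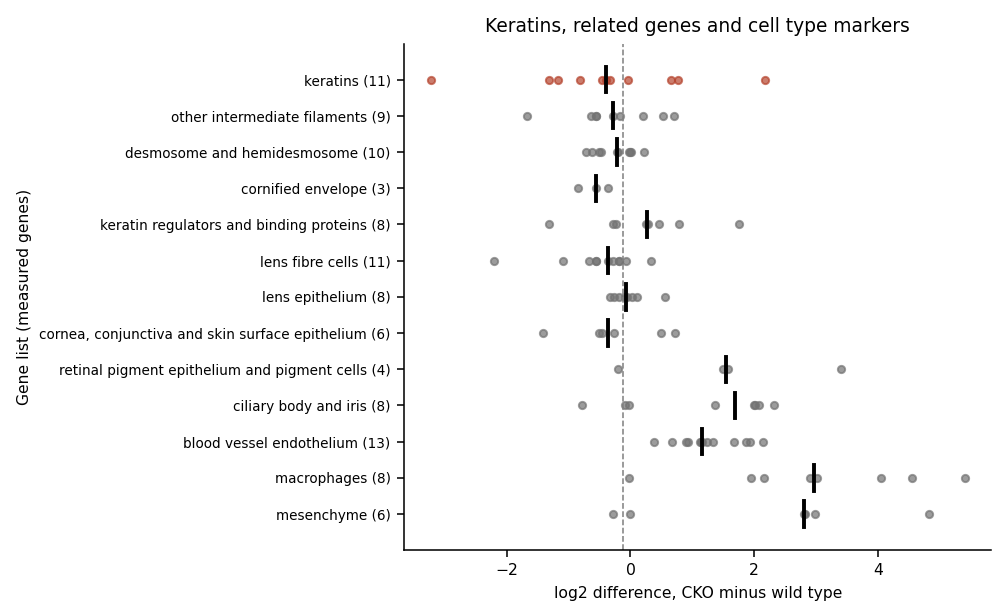
Log2 difference between CKO and wild type (x axis) of each measured gene in the keratins (red), the related lists and the cell type marker lists (grey), with the number of measured genes in brackets and the list median as a black bar. The dashed line is the median of all measured genes at -0.12; the keratins spread to both sides of it, while the bars of the pigment, ciliary, endothelial, macrophage and mesenchyme markers lie above 1.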

How the data were processed

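The authors deposited scanner files with a linear intensity per spot, which per the file headers came from Feature Extraction 10.7.3.1 (protocol GE1_107_Sep09, array design 014868, mm9), corrected for background and spatial trend and not normalized between arrays. They also deposited a table of log2 values, for which no source used here gives the scaling; it served as an alternative. Here log2 of the processed intensity minus each array's 75th percentile over non-control spots was used, without outlier spots. Differences are CKO minus wild type, called at 2-fold. Keratins kept the file's names; other probes took RefSeq symbols (27668 by accession, 5589 by symbol, 471 by an older symbol, 7446 unchanged). Krt83 in the file is Krt87 in RefSeq. Every measured keratin, and every keratin with an at-least fold of 2 or more, was named, as were Krt5, Krt8, Krt12, Krt14 and Krt18, with up to 4 measured genes of each other list that differed most. Other genes named, among them undetected list members, were chosen after their values were seen. The members and lists were chosen with earlier results of these data known. The gene step was tested on simulated data. The 12 alternatives were normexp (offset 50, limma 3.58.1 in R 4.3.3), quantile normalization, scaling to the median, centring by intensity, the deposited table, the mean of probes, 3 filters on dim probes, thresholds of 1.5-fold and 3-fold, and outlier spots kept. Leaving out the forward-strand Krt1 probe was added after seeing the data. The other steps used Python 3.11.15, numpy 2.4.6, pandas 2.3.3 and statsmodels 0.14.6. The 1 array per group limits the precision.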

Additional observations from a re-analysis of the deposited data

How the results depend on the processing

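With 1 keratin at least 2-fold higher and 3 lower as reported, 1 was lower with normexp, 2 were higher with genes well above background on at least 1 array, and 3 were higher and 6 lower with no filter on dim probes (median -0.0339). With measured probes above their median level, which left 3 keratins, 1 was lower (median -0.0459). At 1.5-fold 3 were higher, and at 3-fold 1 was lower. Among keratins well above background on 1 array only, the count with an at-least fold of 2 or more fell from 1 to 0 with normexp. The other 42 values of counts and medians stayed within 1.5 times, or within the SD of repeated spots (0.27). That SD comes from spots within the same 2 arrays, so it does not measure the spread between animals or between arrays. Over all measured genes 584 were higher and 566 lower as reported, 233 and 218 with normexp, 1276 and 1043 with genes seen on at least 1 array, 2026 and 1753 with no filter, 184 and 257 above the median level, 1331 and 2090 at 1.5-fold, 211 and 107 at 3-fold. Median scaling moved the share of calls that were higher from 50.8% to 35.8% and the median of all genes from -0.12 to -0.24, and intensity-dependent centring moved that median to -0.02. No paired analysis was possible because each genotype had 1 array, and for the same reason no replicate could be left out. Signals near 16.5 units limit Krt1 (19.7 in CKO), the upstream Krt7 probe (21.2 in wild type), Krt5, Krt14, Krt15, Krt16, Krt33b and Krt84; with normexp the first moved from -3.23 to -1.54 and the second from 2.41 to 1.02.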

Other observations

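RefSeq now gives keratin symbols to 2 genes that carry clone names in the probe annotation and so were not among the members. Krt88, a gene of the type II cluster, was well above background on both arrays, with 22.4 units in CKO and 28.8 in wild type, a log2 difference of -0.37. Krt90 was well above background on neither array, with 5.03 and 5.04 units.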
